A study of Mus musculus with 8 samples.

Results

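Pmepa1 and 8 genes of transforming growth factor beta (TGF-beta) signaling were examined in the esophagus of healthy mice with and without monoacylglycerol lipase (MGL, encoded by Mgll), the enzyme that degrades the endocannabinoid 2-arachidonoylglycerol. The 9 genes were taken by symbol from the 32849 symbols of the count table: the ligands Tgfb1, Tgfb2 and Tgfb3, the receptors Tgfbr1 and Tgfbr2, the feedback genes Pmepa1, Smad7 and Skil, and the target gene Tgfbi. They were chosen by name with their read counts in MGL KO and WT libraries already known, including the higher count of Pmepa1 in MGL KO, so their values in that comparison are a description and carry no test. RNA came from frozen esophagus tissue, with 4 libraries of the genotype MGL KO and 4 of the genotype WT. The labels name no treatment for either group. According to the methods of the study, the MGL KO line was bred in-house with WT littermates, and male and female mice of 8 to 12 weeks were used, without the sex or age of each library.

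TGF-beta ligands are secreted in a latent form bound to matrix proteins and must be released before they bind a pair of type II and type I receptors. The activated type I receptor phosphorylates SMAD2 and SMAD3, which join SMAD4 and enter the nucleus to regulate target genes. Several targets act back on the pathway: SMAD7 blocks the receptor, SKIL (SnoN) represses transcription by the SMAD proteins, and PMEPA1 is a membrane protein that holds SMAD2 and SMAD3 away from the receptor and binds ubiquitin ligases of the NEDD4 family. In the esophagus, TGF-beta is known for its part in fibrosis and in the remodeling of the wall.

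The deposited counts summed to between 13479069 and 17090152 per library, and a gene with a count of 0 could still hold 3 counts, or 0.167 to 0.271 normalized CPM, by counting error alone. Normalized CPM are counts scaled to the size of the library, with sizes adjusted by TMM factors between 0.823 and 1.11. All 9 genes were well covered, with counts from 138 (Smad7 in WT replicate 3) to 2561 (Tgfbr2 in MGL KO replicate 4), and were among the 14864 genes tested. Mgll, the targeted gene, checked the labels at 12.6 to 16.0 normalized CPM in MGL KO and 66.6 to 88.3 normalized CPM in WT libraries. Markers of muscle, squamous epithelium and fibroblasts were present as sums in every library, although the squamous marker Ivl had 0 counts in MGL KO replicates 2 and 4. MGL KO replicate 2 and WT replicate 3 stood apart with the highest skeletal muscle sums (65559 and 50398 normalized CPM over 5 genes, against 26597 to 42127 in the other 6 libraries) and the lowest sums of differentiated squamous epithelium (2030 and 2816 against 6035 to 13482 normalized CPM over 5 genes). MGL KO replicate 4 held airway ciliated markers at 398.7 normalized CPM, against 7.22 to 13.8 normalized CPM in the other 7 libraries. The labels number the samples of each genotype without naming an animal, so that p-values measure the spread between these samples. In bulk tissue, fewer cells of a type and less RNA per cell cannot be told apart.

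Pmepa1 was the gene of the 9 that separated the genotypes. It lies on the reverse strand of chromosome 2 of GRCm39, from 173066251 to 173118444. MGL KO replicates 1 to 4 gave 53.6, 81.9, 57.7 and 59.6 normalized CPM, and WT replicates 1 to 4 gave 32.2, 31.6, 30.8 and 32.5 normalized CPM. No MGL KO library reached down to the WT range, and the WT libraries were nearly alike. The MGL KO mean of 63.2 ± 12.7 and the WT mean of 31.8 ± 0.760 normalized CPM (SD, n = 4 each) gave a ratio of 1.99 and a log2 fold change of 0.99 (SE 0.14). The spread between libraries differed as well, with a coefficient of variation of 20.1% in MGL KO and 2.39% in WT, and MGL KO replicate 2 was the library far from its group. Without that library, the log2 fold change was 0.85, and the lowest remaining MGL KO value, 53.6 normalized CPM, was still above the highest WT value. WT replicate 3, which shared the high muscle and low squamous sums of MGL KO replicate 2, had Pmepa1 at 30.8 normalized CPM. The WT libraries spanned only 30.8 to 32.5 normalized CPM, and the part of these sums in the Pmepa1 level was not tested. Pmepa1 was the 1 of 9 genes without overlap between the genotypes, where 6.02% of all tested genes had none (2.72% with the MGL KO libraries above and 3.3% with them below). Since the difference was known when the genes were chosen, nothing is read from this count.

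Smad7 encodes the inhibitory SMAD protein that brings ubiquitin ligases to the activated receptor. Its levels were 17.8, 12.9, 14.6 and 17.4 normalized CPM in MGL KO replicates 1 to 4 and 11.9, 14.0, 9.07 and 12.3 normalized CPM in WT replicates 1 to 4. In MGL KO, 3 of 4 libraries were above all WT libraries, and the groups overlapped because MGL KO replicate 2 was below WT replicate 2. The means were 15.6 ± 2.32 and 11.8 ± 2.03 normalized CPM (SD, n = 4 each), a log2 fold change of 0.41 (SE 0.17). Skil encodes a SMAD co-repressor that is broken down on TGF-beta stimulation and then made anew. It stood at 38.1, 32.2, 27.9 and 39.2 normalized CPM in MGL KO replicates 1 to 4 and at 30.4, 27.3, 23.9 and 25.6 normalized CPM in WT replicates 1 to 4. Here too 3 of 4 MGL KO libraries were above all WT libraries, with MGL KO replicate 3 inside the WT range. The means were 34.3 ± 5.28 and 26.8 ± 2.78 normalized CPM (SD, n = 4 each), a log2 fold change of 0.36 (SE 0.14).

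**Figure D1:**
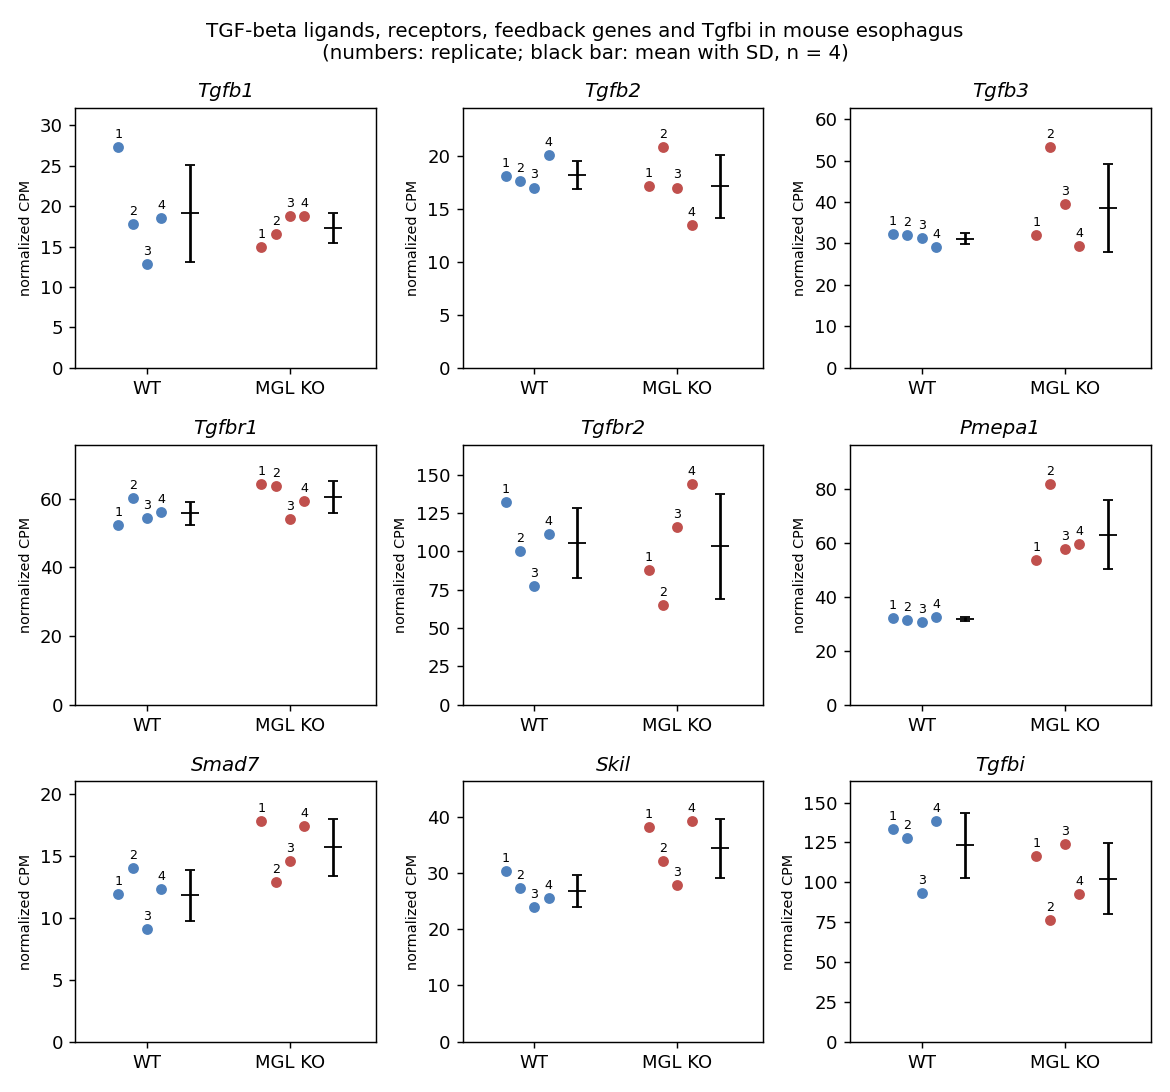
Normalized CPM (y axis, from 0) of the 9 genes in each library, with WT on the left and MGL KO on the right of each panel, the replicate number above each point and a black bar for the mean with its SD (n = 4). Pmepa1 has its 4 MGL KO points between 53.6 and 81.9 and its 4 WT points between 30.8 and 32.5, and the other 8 genes overlap between the genotypes.

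The ligands showed no separation. Tgfb1, the ligand linked most to immune cells and fibrosis, was at 15.0, 16.6, 18.8 and 18.8 normalized CPM in MGL KO replicates 1 to 4 and at 27.3, 17.8, 12.8 and 18.5 normalized CPM in WT replicates 1 to 4. The WT libraries enclosed the MGL KO range, and the coefficient of variation in WT was 31.6%. WT replicate 1, with the highest Tgfb1 level, also had the highest sum of the 5 leukocyte markers, 253.4 normalized CPM against 51.7 to 106.4 normalized CPM in the other 7 libraries, and the part of this in the Tgfb1 level was not tested. The log2 fold change of Tgfb1 was −0.14 (SE 0.22) with all libraries and 0.08 without WT replicate 1. Tgfb2, a ligand needed for the development of the heart and skeleton, gave 17.1, 20.8, 17.0 and 13.5 normalized CPM in MGL KO replicates 1 to 4 against 18.1, 17.6, 17.0 and 20.1 normalized CPM in WT replicates 1 to 4. Here the MGL KO libraries enclosed the WT range, and the log2 fold change was −0.09 (SE 0.15).

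Tgfb3 encodes the ligand known from the fusion of the palate. Its level was 32.1, 53.2, 39.5 and 29.4 normalized CPM in MGL KO replicates 1 to 4 and 32.2, 32.0, 31.2 and 29.2 normalized CPM in WT replicates 1 to 4. The WT libraries were alike, as for Pmepa1, and MGL KO replicate 2 was again the highest library, with only that library and MGL KO replicate 3 above the WT range. The log2 fold change was 0.30 (SE 0.18) with all libraries and 0.11 without MGL KO replicate 2. Exons of Tgfb3 overlap exons of Ttll5 on the opposite strand, and whether the counting used strand is not given in the sources used here. Ttll5 itself was counted at 9.20 to 15.2 normalized CPM. On GRCm39, Tgfb1 lies at chr7:25386390-25404506 on the forward strand, Tgfb2 at chr1:186354985-186438294 and Tgfb3 at chr12:86102756-86126301, both on the reverse strand.

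The genotypes overlapped for both receptors. Tgfbr1, the type I receptor kinase, had 64.2, 63.7, 54.2 and 59.4 normalized CPM in MGL KO replicates 1 to 4 and 52.3, 60.2, 54.3 and 56.1 normalized CPM in WT replicates 1 to 4, a log2 fold change of 0.12 (SE 0.09). It was the steadiest of the genes in MGL KO, with a coefficient of variation of 7.69%. Tgfbr2, the type II receptor that binds the ligand, had 87.9, 65.2, 116.0 and 143.9 normalized CPM in MGL KO replicates 1 to 4 and 132.0, 100.2, 77.2 and 111.7 normalized CPM in WT replicates 1 to 4. The group means were 103.2 ± 34.2 and 105.3 ± 22.9 normalized CPM (SD, n = 4 each), and the log2 fold change was −0.03 (SE 0.25). Exons of Tgfbr2 overlap those of Gm4668, which was counted at 0.00 to 0.184 normalized CPM. The lowest library of each genotype was the one with its highest skeletal muscle sum, MGL KO replicate 2 and WT replicate 3, and the highest library of all was MGL KO replicate 4, which held airway ciliated markers. Their part in the Tgfbr2 level was not tested. Without MGL KO replicate 2 the log2 fold change was 0.14, and without MGL KO replicate 4 it was −0.23.

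Tgfbi encodes a secreted matrix protein that was named for its induction by TGF-beta. Unlike Pmepa1 it overlapped between the genotypes, at 116.7, 76.0, 124.2 and 92.4 normalized CPM in MGL KO replicates 1 to 4 and 133.3, 127.7, 93.0 and 138.3 normalized CPM in WT replicates 1 to 4. The means were 102.3 ± 22.2 in MGL KO and 123.1 ± 20.5 normalized CPM in WT (SD, n = 4 each), with a log2 fold change of −0.27 (SE 0.18). As for Tgfbr2, the lowest library of each genotype was MGL KO replicate 2 or WT replicate 3, and without MGL KO replicate 2 the log2 fold change was −0.14. The sum of 5 fibroblast markers was also lowest in MGL KO replicate 2, at 419.9 normalized CPM against 551.1 to 966.1 in the other 7 libraries, and its part was not tested. Over the 9 genes the log2 fold change was above 0 for 5, with a median of 0.12, and without Pmepa1 the median was 0.04, beside 0.02 over all tested genes.

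Upstream sequences are shown for Pmepa1, which separated the genotypes, and for Skil and Tgfbi, a feedback gene and a target that did not. Each is the reference sequence of GRCm39 within the 250 bases before the start of the canonical transcript of GENCODE release M39, without the bases that another transcript of the gene covers (112 for Pmepa1, 32 for Tgfbi and 0 for Skil). The stretch of Pmepa1 is chr2:173118445-173118582 on the reverse strand, that of Skil chr3:31148566-31148815 on the forward strand, and that of Tgfbi chr13:56757118-56757335 on the forward strand. Capitals mark CAGAC, the core that SMAD3 and SMAD4 bind, or GTCTG, the same core on the other strand.
Pmepa1: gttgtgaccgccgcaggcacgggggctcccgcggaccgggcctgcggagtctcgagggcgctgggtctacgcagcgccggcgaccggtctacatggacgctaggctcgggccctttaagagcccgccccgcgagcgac
Skil: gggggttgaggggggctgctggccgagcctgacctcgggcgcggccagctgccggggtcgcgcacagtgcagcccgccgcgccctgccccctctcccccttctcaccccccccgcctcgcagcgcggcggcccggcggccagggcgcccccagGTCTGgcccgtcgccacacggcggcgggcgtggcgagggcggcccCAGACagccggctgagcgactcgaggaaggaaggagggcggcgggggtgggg
Tgfbi: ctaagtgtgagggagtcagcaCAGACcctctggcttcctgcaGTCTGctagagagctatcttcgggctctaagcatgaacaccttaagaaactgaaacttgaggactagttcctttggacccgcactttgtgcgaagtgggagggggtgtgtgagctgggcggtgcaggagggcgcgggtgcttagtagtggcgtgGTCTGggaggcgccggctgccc
Of 4 motifs searched on both strands of the full 250 bases, the Pmepa1 window held none. The motifs were CAGAC, present in 41.3% of 21716 protein-coding promoters of this length, the palindromic SMAD element GTCTAGAC (0.239%), the longer CAGA box AGCCAGACA (0.364%), which contains CAGAC, and the AP-1 element TGACTCA (4.03%). CAGAC stood at positions −97 and −52 from the transcript start in Skil and at −229, −208 and −54 in Tgfbi. The palindrome occurred in 1 of the 9 windows, that of Smad7, at position −127. Tgfb2 and Tgfbr2 held 2 CAGAC each, Tgfbr1 held 1, and Tgfb1 and Tgfb3 held 0 of the 4 motifs. The windows of Pmepa1 and Skil were rich in G and C, at 78.8% and 80.8% against a median of 53.2% over all promoters. A match describes letters, and a window without one says nothing of a factor that binds elsewhere.

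The order of the levels among the genes did not enter their choice and was compared per kilobase (kb) of exon, over all 8 libraries. Tgfbi was the most abundant at 29.8 ± 6.01 normalized CPM per kb (SD, n = 8), followed by Tgfbr2 at 11.9 ± 3.07, Tgfbr1 at 8.77 ± 0.680, Tgfb3 at 6.69 ± 1.55 and Pmepa1 at 6.37 ± 2.52 normalized CPM per kb. The lower levels were those of Tgfb1 at 3.58 ± 0.834, Skil at 3.03 ± 0.556, Smad7 at 2.89 ± 0.607 and Tgfb2 at 2.82 ± 0.356 normalized CPM per kb. A two-sided exact paired permutation test on the log2 levels was adjusted over the 8 pairs of neighbors, which include 2 pairs with Pmepa1. Of the 6 pairs without Pmepa1, 0 passed 0.05 after this adjustment and 2 did so at an unadjusted p. The smallest p that 8 libraries allow is 0.00781. Tgfbi exceeded Tgfbr2 by 1.35 ± 0.34 on the log2 scale (SD, 8 of 8 libraries; exact p = 0.00781, adjusted p = 0.0625), and Tgfbr1 exceeded Tgfb3 by 0.41 ± 0.27 (7 of 8 libraries; exact p = 0.0156, adjusted p = 0.0625). Adjusted over the 6 pairs without Pmepa1 alone, an alternative added after the data were seen, both of these pairs passed (exact permutation test, adjusted p = 0.0469 each). Over the 8 pairs, 3 passed with the length of the longest transcript (Tgfbi over Tgfbr2, Tgfb1 over Skil and Skil over Smad7, exact permutation test, adjusted p = 0.0208 each). Likewise 3 passed without MGL KO replicate 2 (Tgfbi over Tgfbr2, Tgfbr2 over Tgfbr1 and Tgfbr1 over Tgfb3, exact permutation test, adjusted p = 0.0417 each). The place of Pmepa1 in this order turned on the genotype. Its MGL KO levels were known when the genes were chosen, so nothing is read from the tests of its pairs. Those tests still entered the adjustment over 8 pairs, and the pairs are only described here. Pmepa1 exceeded Tgfb1 by 1.30 ± 0.31 on the log2 scale in MGL KO (4 of 4 libraries) and by 0.23 ± 0.42 in WT (3 of 4 libraries). With the length of the longest transcript in place of all exons, it was instead the lower over 8 libraries, by −0.08. Tgfb3 minus Pmepa1 was 0.49 ± 0.08 on the log2 scale in WT (Tgfb3 higher in 4 of 4 libraries) and −0.22 ± 0.21 in MGL KO (Tgfb3 higher in 0 of 4 libraries). In WT libraries the mean of Pmepa1 was 4.26 ± 0.102 normalized CPM per kb and in MGL KO libraries 8.48 ± 1.71 normalized CPM per kb (SD, n = 4 each).

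**Figure D2:**
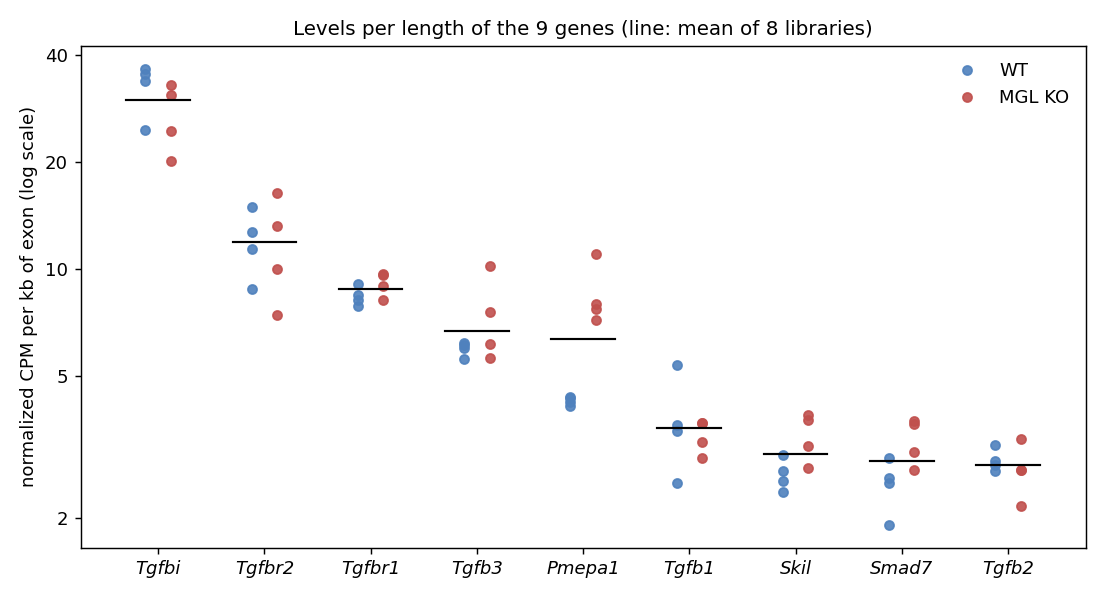
Normalized CPM per kb of exon (y axis, log scale) of the 9 genes in order of their mean level, with 1 point per library (blue for the 4 WT and red for the 4 MGL KO libraries) and a black line at the mean of 8. Tgfbi lies at 20.1 to 36.6, above the other genes, and Pmepa1 is the gene whose red and blue points stand apart.

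Among the ligands, Tgfb3 made up the largest share of the level per kb. Of the summed level of the 3 ligands, Tgfb3 took 54.0% ± 4.97 in MGL KO and 47.6% ± 4.71 in WT esophagi, Tgfb1 25.8% ± 5.26 and 29.2% ± 6.08, and Tgfb2 20.3% ± 1.91 and 23.1% ± 2.46 (SD, n = 4 each). The ranges of the genotypes overlapped for each ligand, with Tgfb3 at 49.0% to 60.8% in MGL KO and 42.8% to 53.4% in WT. The level of Tgfbr2 over that of Tgfbr1 per kb was 1.31 ± 0.492 in MGL KO and 1.43 ± 0.360 in WT (SD, n = 4 each), from 0.770 in MGL KO replicate 2 to 1.90 in WT replicate 1.

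The rest of the pathway was read from 65 further genes of TGF-beta and BMP signaling, of which 64 were tested. By the quasi-likelihood test of edgeR, adjusted over all genes by the Benjamini-Hochberg method, 0 of 64 passed, beside 0.0471% of all tested genes (0.0202% higher and 0.0269% lower in MGL KO). DESeq2 called 6 (Acvr1, Ccn2, Cdkn1a, Itgb6, Thbs1 and Tsc22d1), where it called 0.935% of all genes with an adjusted p. The exact test of edgeR called 3 (Ccn2, Itgb6 and Thbs1) beside 0.437% of all tested genes, and limma-voom with quality weights called 1 (Ccn2) beside 0.168%. At an unadjusted p under 0.05, 9 genes were higher and 4 lower in MGL KO, together 20.3% of the list, beside 8.65% of all tested genes (4.35% higher and 4.29% lower). The genotypes did not overlap for 8 genes with MGL KO above and 3 with MGL KO below, together 17.2%, beside 6.02% of all tested genes. The list was chosen with earlier results of these data known. It holds Ccn2 and Cdkn1a, which the study reported from these same libraries, so nothing is read from these shares. Exons of 16 of the 65 pathway genes overlap those of another listed gene on the opposite strand, which leaves their counts uncertain, and of the genes named here these are Thbs1, Acvr1, Acvr1b, Acta2, Fn1, Smurf2, Tagln and Tgif2. The median log2 fold change of the list was 0.04, beside 0.02 over all tested genes, and 37 of 64 values were above 0.

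**Figure D3:**
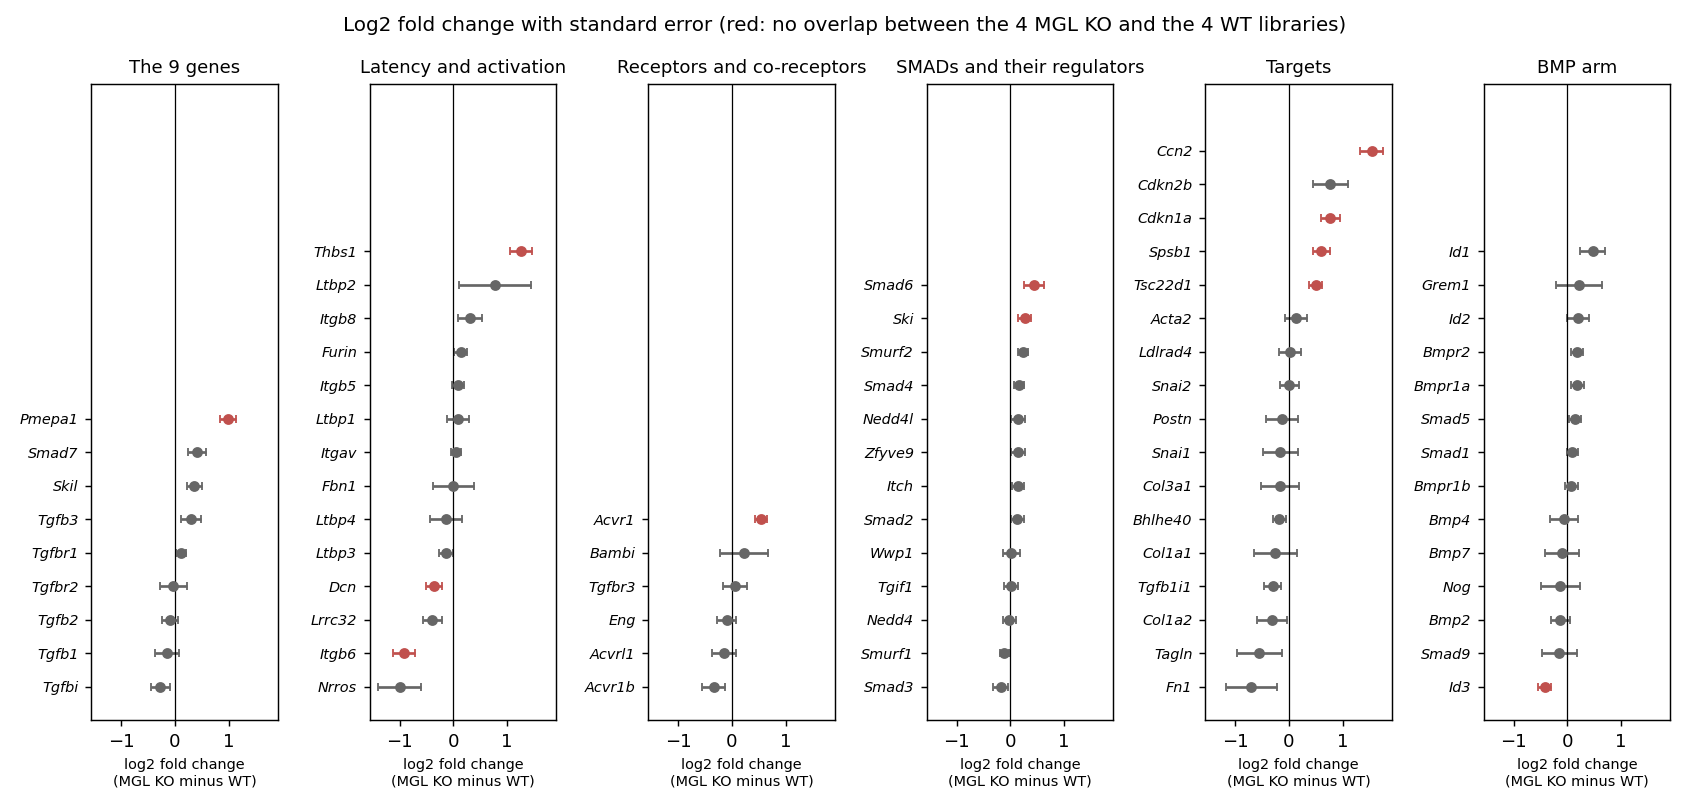
Log2 fold change (x axis, MGL KO minus WT, with bars for the standard error) of the 9 genes and of the 64 tested pathway genes by role, each row a gene and red marking genes whose 4 MGL KO and 4 WT libraries did not overlap. Among the targets, the red points are Ccn2, Cdkn1a, Spsb1 and Tsc22d1, while the collagens, Fn1 and Postn lie below 0 with overlap.

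Ccn2, a target, had the largest log2 fold change of the list. Of 17 targets, 5 were higher and 0 lower in MGL KO at an unadjusted p under 0.05 (4.35% and 4.29% of all tested genes), 4 had no overlap (6.02% of all tested genes), and the median log2 fold change was −0.13. Ccn2, a secreted matricellular protein (CTGF), was at 54.4 to 87.1 normalized CPM in MGL KO and 16.8 to 29.9 normalized CPM in WT libraries. Its means were 65.3 ± 14.8 and 22.4 ± 6.16 normalized CPM (SD, n = 4 each), a log2 fold change of 1.54 (SE 0.22, adjusted p = 0.0896). Cdkn1a, the cell cycle inhibitor p21, was at 219.6 to 396.0 normalized CPM in MGL KO and 154.2 to 198.6 normalized CPM in WT libraries, a log2 fold change of 0.77 (SE 0.18, adjusted p = 0.370). The other targets without overlap, named after their values were seen, were Spsb1 and Tsc22d1, with log2 fold changes of 0.60 and 0.50. The study's own list of changed genes, made from these same libraries, also holds Pmepa1, Ccn2 and Cdkn1a, so that the list is no independent evidence of their direction.

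Some targets that encode matrix proteins had values of the other sign from Ccn2, and are named here after their values were seen. The log2 fold change was −0.25 for Col1a1, −0.31 for Col1a2, −0.17 for Col3a1, −0.70 for Fn1 and −0.13 for Postn, each with overlapping genotypes and short of the test. All 5 fibroblast markers also had a log2 fold change below 0, from −0.58 for Lum to −0.26 for Col6a1, with overlap and short of the adjusted test. Their sum was 419.9 to 966.1 normalized CPM in MGL KO (mean 653.5) and 748.3 to 963.9 normalized CPM in WT (mean 824.0), and their part in the matrix genes was not tested. Acta2, smooth muscle actin and the target with the highest level (201.5 normalized CPM per kb), was at 680.5 ± 79.1 normalized CPM in MGL KO and 619.9 ± 166.9 normalized CPM in WT (SD, n = 4 each), a log2 fold change of 0.13 (SE 0.20). Tagln, which smooth muscle also makes and which was likewise named later, was counted at only 0.361 to 1.11 normalized CPM, and its exons overlap those of Pcsk7 on the opposite strand (21.7 to 37.9 normalized CPM).

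Among immediate early genes, which respond to recent stimulation or handling, the summed level separated the genotypes as Pmepa1 did. The sum of the 11 listed genes was 649.0 to 1119 normalized CPM in MGL KO and 422.8 to 493.7 normalized CPM in WT libraries. Of the 11 genes, 5 did not overlap (6.02% of all tested genes) and 6 did, 10 had a log2 fold change above 0, and 1, Dusp1, passed the test (0.0471% of all tested genes), with a log2 fold change of 1.80 (SE 0.21, adjusted p = 0.0494 by edgeR's quasi-likelihood test). That call lies at the threshold, and Dusp1 passed in 7 of 17 other settings, with adjusted p-values from 6.11e-12 by DESeq2 to 0.502 with the replicate number as a block. The study also names Dusp1 and Fos in a list drawn from these same libraries. The 11 genes were listed with earlier results of these data known, so neither they nor their sum give independent support. Within MGL KO, replicate 1 had the highest sum, 1119 normalized CPM, and the lowest Pmepa1 level, 53.6 normalized CPM. Replicates 2, 3 and 4 had the same order in both, with sums of 831.7, 649.0 and 719.1 normalized CPM. Their Pmepa1 levels were 81.9, 57.7 and 59.6 normalized CPM. Ccn2 was highest in MGL KO replicate 1 at 87.1 normalized CPM. The part of the immediate early genes in the levels of Pmepa1 and Ccn2 was not tested.

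Genes of latency and activation went in both directions. Of 14, 1 was higher and 3 were lower in MGL KO at an unadjusted p under 0.05 (4.35% and 4.29% of all tested genes), and the median log2 fold change was 0.02. Thbs1, thrombospondin 1, which can release the active ligand from its latent complex, was at 33.0 to 55.9 normalized CPM in MGL KO and 14.7 to 24.2 normalized CPM in WT libraries without overlap (log2 fold change 1.26, SE 0.21, adjusted p = 0.170). Itgb6, an epithelial integrin subunit that activates latent TGF-beta and was named after its values were seen, was at 14.2 to 21.7 normalized CPM in MGL KO and 23.1 to 39.2 normalized CPM in WT, also without overlap (−0.92, SE 0.21, adjusted p = 0.314). Nrros, which tethers latent TGF-beta to the surface of macrophages, was at 7.58 ± 2.66 normalized CPM in MGL KO and 15.2 ± 8.16 normalized CPM in WT (SD, n = 4 each; adjusted p = 0.550). Its groups overlapped, and its highest level, 26.7 normalized CPM, was in WT replicate 1, the library with the highest leukocyte sum. Dcn, a matrix proteoglycan that binds TGF-beta and also named after its values were seen, was lower without overlap (−0.36). Ltbp4, a latent TGF-beta binding protein, had the highest level of this role, 62.0 normalized CPM per kb, with 447.0 ± 196.2 normalized CPM in MGL KO and 488.2 ± 89.3 normalized CPM in WT (SD, n = 4 each).

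Among 6 receptors and co-receptors, Acvr1 was the 1 gene without overlap, beside 6.02% of all tested genes. This type I receptor of BMP and activin signaling was at 39.1 to 52.4 normalized CPM in MGL KO and 29.5 to 33.7 normalized CPM in WT libraries (log2 fold change 0.54, SE 0.11, adjusted p = 0.300). Acvr1b, the activin receptor with the highest level of this role (14.4 normalized CPM per kb), was at 60.4 ± 17.6 normalized CPM in MGL KO and 76.5 ± 8.21 normalized CPM in WT, with overlap. Of 13 tested SMADs and regulators, 2 (Smad6 and the ubiquitin ligase Smurf2, the latter named after its values were seen) were higher at an unadjusted p under 0.05, beside 4.35% of all tested genes. Log2 fold changes were above 0 for 10 of the 13, beside 53% of all tested genes, with a median of 0.14. Smad6, the inhibitory SMAD of BMP signaling, was at 7.58 ± 0.618 normalized CPM in MGL KO and 5.59 ± 0.994 normalized CPM in WT (0.44, SE 0.19, adjusted p = 0.578). Ski, the co-repressor related to Skil, was at 249.3 ± 30.8 and 206.6 ± 15.6 normalized CPM (0.27, SE 0.12, adjusted p = 0.579), and neither Smad6 nor Ski overlapped between the genotypes. Nedd4, a ubiquitin ligase of the family that PMEPA1 binds, had the highest level of this role, 51.8 normalized CPM per kb, and a log2 fold change of −0.02 (SE 0.12). Tgif2, a SMAD co-repressor and the 1 listed pathway gene that was not tested, was at 0.00 to 0.271 normalized CPM.

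In the BMP arm, 14 genes gave 1 that was lower and 0 that were higher at an unadjusted p under 0.05, a share of 7.14% near the 8.65% of all tested genes. The lower gene was Id3, an inhibitor of differentiation and BMP target, at 15.4 to 17.3 normalized CPM in MGL KO and 18.5 to 23.6 normalized CPM in WT libraries without overlap (log2 fold change −0.42, SE 0.12, adjusted p = 0.478). Its relative Id1 had the opposite sign, 0.47 (SE 0.23, adjusted p = 0.615), with overlap. Bmpr1a, a type I BMP receptor and the most abundant gene of the arm at 15.2 normalized CPM per kb, was at 125.4 ± 19.8 normalized CPM in MGL KO and 110.8 ± 5.53 normalized CPM in WT (SD, n = 4 each).

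Within the genotypes, the 9 genes did not vary as 1 group. The measure was Pearson's r of the log2 CPM as deviations from the mean of the own genotype over 8 libraries, which share depth and tissue makeup, and it is given as a description. Pmepa1 ran with Tgfb3 (r = 0.82) and Tgfb2 (0.64) and opposite to Tgfbi (−0.60), Tgfbr2 (−0.48) and Smad7 (−0.47). These values rest on MGL KO replicate 2: without it r was −0.12 for Tgfb3, −0.32 for Tgfb2, 0.08 for Tgfbi, 0.90 for Tgfbr2 and 0.16 for Smad7. Of the other pairs, the largest in size were Tgfb2 with Tgfb3 (0.77), Tgfb1 with Tgfbr2 (0.70), Smad7 with Skil (0.65), Smad7 with Tgfbi (0.65), Tgfb3 with Tgfbr2 (−0.64), Tgfb2 with Tgfbr2 (−0.61) and Tgfb3 with Smad7 (−0.60). Without MGL KO replicate 2 they were, in that order, 0.42, 0.88, 0.65, 0.48, −0.13, −0.24 and −0.36. Other pairs became larger without it, among them Tgfb2 with Tgfbi (−0.04 to 0.80) and Pmepa1 with Tgfb1 (0.09 to 0.63), so that no pattern is read from these values.

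The genes most like Pmepa1 by this measure, among 14863 others, were Nup155 (r = 0.99), a nuclear pore protein, Rbm17 (0.99), a splicing factor, Scn8a (0.98), a sodium channel, Casp12 (0.97), a caspase, and Tfb1m (0.97), which modifies mitochondrial ribosomal RNA. Each had its highest level in MGL KO replicate 2, with Nup155 at 38.5 normalized CPM there, 22.1 to 24.1 normalized CPM in the other MGL KO libraries and 24.9 to 26.2 normalized CPM in WT. Without that library r was 0.96 for Nup155 and 0.99 for Rbm17 but 0.74 for Scn8a, 0.51 for Casp12 and 0.58 for Tfb1m. The most opposite were 9630013K17Rik (−0.99), Zfp866 (−0.98) and Mst1r (−0.98), with −0.89, −0.75 and −0.68 without it. Unlike Pmepa1, the genotypes overlapped for all 8 of these genes.

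**Figure D4:**
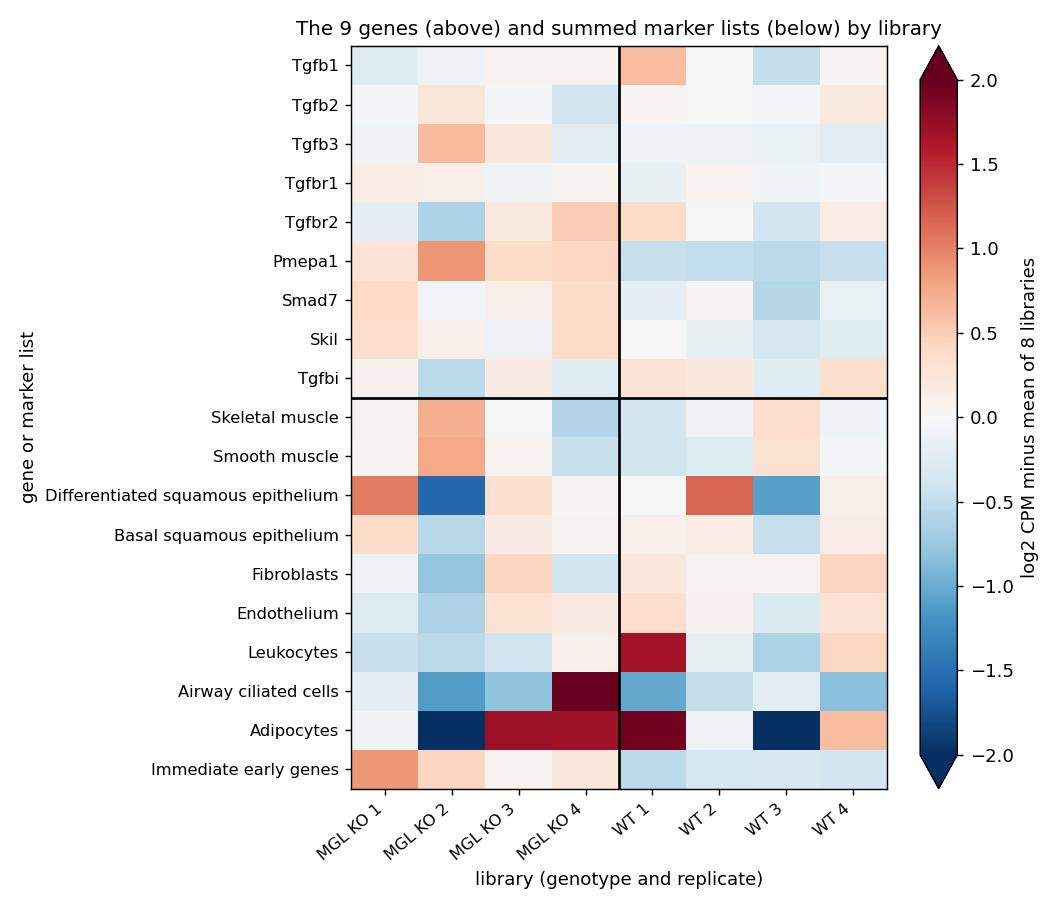
Log2 CPM minus the mean of 8 libraries (color, with the darkest shades standing for all values beyond the scale) for the 9 genes and for summed marker lists (rows) in each library (columns, MGL KO on the left). The Pmepa1 row is red in the 4 MGL KO and blue in the 4 WT libraries, as is the immediate early gene row, while MGL KO replicate 2 and WT replicate 3 share a red skeletal muscle row and blue squamous epithelium rows. The smooth muscle row is mostly Des, which skeletal muscle also makes and which was at 11885 normalized CPM in MGL KO replicate 2, where Myh11, a smooth muscle myosin, was at 397.3 normalized CPM, the lowest of the 4 MGL KO libraries.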

How the data were processed

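RNA of 4 MGL KO and 4 WT mouse esophagi was selected for poly(A) tails and read on Illumina NovaSeq instruments. According to the submitters' processing notes and the methods of the study, the authors checked reads with FastQC 0.11.9, trimmed adapters with Cutadapt and aligned to GRCm39 with STAR 2.7.10b. The deposited values are whole-number counts for each gene symbol and library, without normalization. The counting tool, its use of strand and the annotation are not given in the sources used here. Reads shared by overlapping genes could therefore be lost or assigned to the partner.

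Samples were grouped by the genotype in their labels. The 9 genes, the pathway list and the marker lists were chosen with earlier results of these data known. Genes were kept by filterByExpr at a minimum count of 10, which left 14864 genes and 98.1% to 99.9% of the counts of each library, and all 8 libraries were compared with edgeR 4.0.16 (R 4.3.3) by the quasi-likelihood test with TMM factors and Benjamini-Hochberg adjustment at a threshold of 0.05. Standard errors were derived from the log2 fold change and the F statistic of each gene. The exact test, named in the study's methods, DESeq2 1.42.0, limma 3.58.1 (voom with quality weights), other scalings and filters, the replicate number as a block and leaving out each library were the alternatives. Libraries of the same genotype differed by more than sampling noise, with a chi-square per degree of freedom of at least 13.6 in every pair.

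Lengths, positions and transcript starts came from GENCODE release M39 on GRCm39, where 30552 of the 32849 symbols (93%) were found. Levels per kb divided normalized CPM by the union of a gene's exons, and neighbors in the order were compared with scipy 1.17.1 by exact sign flips of log2 values with a pseudocount of 0.01. Deviations used log2 CPM with a prior count of 1. The pathway genes named were, in each role, the 2 with the largest absolute log2 fold change and the 1 with the highest level per kb, and other names were chosen after their values were seen. The genes most like Pmepa1 were the 5 highest and 3 lowest by r. A gene of the pathway list is not reported here and was left out of its counts.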

Additional observations from a re-analysis of the deposited data

Results flagged for a closer look

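In 3 of the 68 groups of 4 libraries examined, 1 library lay far from the other 3 by Dixon's criterion, where chance alone would give about 3.40. The sum of the basal squamous markers in WT replicate 3 was 2986 normalized CPM, against 4420 in the next. The sum of the airway ciliated markers in MGL KO replicate 4 was 398.7 normalized CPM, against 13.8 in the next. The sum of the thyroid markers in WT replicate 1 was 4.96 normalized CPM, against 0.970 in the next, a low level in every library.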

How the results depend on the processing

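The sign of the log2 fold change stayed the same under all 17 alternatives for Pmepa1 (0.84 to 1.00 under 9 other settings, 0.85 to 1.07 when each library was left out), Smad7, Skil, Tgfb3, Tgfbr1 and Tgfbi, but changed in 1 of 17 for Tgfb1 (without WT replicate 1) and Tgfb2 (without MGL KO replicate 4) and in 4 of 17 for Tgfbr2. Over all genes, the 7 calls became 65 with the exact test, 137 with DESeq2, 25 with limma-voom, 2 without a filter, 2 with a robust fit and 2 with the replicate number as a block, and 2 to 5 when each library was left out (5 without WT replicate 4, 4 or 3 when MGL KO replicate 1 or 2 was missing, and 2 without each of the others). With library size alone, 5 of 6 calls were higher in MGL KO, against 3 of 7. The 0 calls among the 64 pathway genes became 3 with the exact test, 6 with DESeq2 and 1 with limma-voom. Same-numbered libraries did not deviate together (correlations of −0.28 to 0.079), and the labels do not say what the number stands for. The block left 0 calls in the pathway. With the longest transcript as length, Tgfbi over Tgfbr2 (1.64), Tgfb1 over Skil (0.71) and Skil over Smad7 (0.50) passed the test at an adjusted p of 0.0208 by the exact permutation test, and Pmepa1 over Tgfb1 (−0.08) and Smad7 over Tgfb2 (−0.14) turned. Adjusted over the 6 pairs without Pmepa1, Tgfbi over Tgfbr2 (1.35) and Tgfbr1 over Tgfb3 (0.41) passed at 0.0469. The ligand shares, an alternative added after the data were seen, became 37.7% for Tgfb1, 17.9% for Tgfb2 and 44.4% for Tgfb3, from 27.5%, 21.7% and 50.8% over 8 libraries. When each library was left out, the differences ranged from 1.31 to 1.46 for Tgfbi over Tgfbr2, 0.32 to 0.50 for Tgfbr2 over Tgfbr1, 0.38 to 0.49 for Tgfbr1 over Tgfb3 and −0.09 to 0.09 for Smad7 over Tgfb2. The first 3 of these passed without MGL KO replicate 2 (adjusted p = 0.0417, exact permutation test). The r values without MGL KO replicate 2 were also added after the data were seen. The causes were not tested.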
